A study of Arabidopsis thaliana with 12 samples.

Results

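Seedlings of Arabidopsis thaliana whose H3.3 carries alanine in place of lysine 36 (K36A) were compared with wild-type Columbia (Col) seedlings by RNA sequencing, with 3 libraries of each. The members are all genes of the deposited table with at least 1 TPM (transcript abundance scaled per gene length and to the same total in each library) in 3 or more of these 6 libraries, which kept 19599 of 23916 genes. The K36A genotype is labelled h3.3ko;HTR5 K36A, an H3.3 knockout background with HTR5 carrying the K36A change. The other genotypes used here are h3.3ko;HTR5 T31A, the same background with alanine in place of threonine 31 (T31A), and efs, a mutant named for the histone methyltransferase gene EFS, with 3 libraries each. All 12 libraries came from total RNA of whole seedlings 10 days old, grown at 22 °C under a day of 16 h light and 8 h dark. The labels do not name the alleles of the knockout, the allele of efs, the promoter of the HTR5 copy or the number of lines behind a genotype. An H3.3 knockout that carries unmutated HTR5 was not analysed here, so the K36A substitution cannot be told apart from the knockout background in the comparison with Col. The K36A and T31A genotypes share that background by label, and they are compared directly.

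H3.3 is the form of histone H3 that is placed into chromatin throughout the cell cycle, mostly over transcribed genes, whereas H3.1 is placed at DNA replication. Lysine 36 of the H3 tail is methylated over transcribed genes, in Arabidopsis mainly by EFS (also called SDG8) and its relatives. In this plant the mark is best known for keeping the floral repressor FLC active. Alanine cannot be methylated. Threonine 31 is one of the few residues that set H3.3 apart from H3.1.

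Reads recovered from the TPM values ranged from 19559740 to 25533018 per Col library and from 18589077 to 23616265 per K36A library. The labels do not say whether replicates were separate plantings, so each p-value covers the spread among these libraries alone, which may be technical. Col replicate 1 stood apart by gene length. In the shortest of 4 equal bins of gene span, its median log2 value lay -0.141 from the mean of the 12 libraries, against -0.0706 and -0.0815 in the other Col libraries. In the longest bin it lay at 0.0805, against -0.0952 and -0.0467. K36A replicate 2 lay at -0.0742 in the longest bin, against 0.0224 and 0.0434 in the other K36A libraries. Marker sums differed between the genotypes as well: green tissue genes summed to 53199 to 57749 TPM in Col and to 45546 to 47154 TPM in K36A, and root genes to 2679 to 2916 TPM and 2927 to 3000 TPM. In whole seedlings, fewer cells of a type and less RNA per cell cannot be told apart.

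Among the H3.3 genes, the K36A libraries held more RNA from the gene named in their genotype and less from another. HTR5 (AT4G40040) stood at 282, 352 and 352 TPM in Col replicates 1, 2 and 3 and at 593, 592 and 587 TPM in K36A, a log2 difference of 0.85 (SE 0.08, adjusted p = 2.9e-06). HTR8 (AT5G10980), another H3.3 gene, stood at 108, 147 and 134 TPM in Col and at 22.5, 21.5 and 18.1 TPM in K36A, a log2 difference of -2.58 (SE 0.14, adjusted p = 2.6e-08). HTR4, the remaining H3.3 gene, went from 234, 290.5 and 304 TPM to 175, 155 and 170.4 TPM, with a log2 difference of -0.72 (SE 0.09, adjusted p = 3.6e-05). Every K36A library lay outside the Col range for each of these 3 genes, above it for HTR5 and below it for the other two. Reads from a transgene and from the endogenous gene cannot be told apart in a table of gene values. T31A, which carries the same background by label, had 653 ± 25.1 TPM of HTR5 and 16.5 ± 3.52 TPM of HTR8 (mean ± SD, n = 3). AT4G40042, a microsomal signal peptidase subunit gene that lies beside HTR5, rose from 8.4, 13.1 and 17.2 TPM to 57, 43.6 and 71.6 TPM, and stood at 47.3 ± 8.05 TPM in T31A and 15.4 ± 3.22 TPM in efs.

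Many other histone genes rose as well, "rose" and "fell" being used throughout of genes called in the same direction with both scalings, TPM as deposited and TPM rescaled by median-of-ratios factors. A group of 47 histone genes, put together by product name after the values were seen, held 28 that rose and 2 that fell, where 13.6% of all tested genes rose and 9.04% fell. AT3G53730, a histone H4 family gene, stood at 32.9, 54.7 and 54.1 TPM in Col and 208, 189 and 211 TPM in K36A, a log2 difference of 2.11 (SE 0.14, adjusted p = 1.6e-07). AT3G45930, which is also in that family, rose from 29.9, 40 and 45.9 TPM to 99.7, 98.3 and 98.7 TPM. HIS1-3 (AT2G18050), a linker histone H1 variant known for its response to drought and abscisic acid, rose from 106, 121 and 102 TPM to 529.7, 520.0 and 515 TPM, a log2 difference of 2.24 (SE 0.08, adjusted p = 2.6e-10). The lowest K36A library of AT3G45930 lay above its highest Col library, as a rule of choice already required for the other two. T31A levels were close to those of K36A, at 243 ± 6.41 TPM for AT3G53730 and 555 ± 32.1 TPM for HIS1-3, and their differences from K36A did not pass the test (adjusted p = 0.189 and 0.436, limma). Near-identical histone genes can share reads, so single members are uncertain. Of 15 DNA replication genes, none was called with both scalings, and 3 of 12 mitotic genes rose, among them the mitotic cyclin gene CYCB1;2 (log2 difference 0.38, SE 0.08, adjusted p = 0.00385). The mitotic count with TPM as deposited was 5, and 3 without Col replicate 2, Col replicate 3 or K36A replicate 2.

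**Figure D1:**
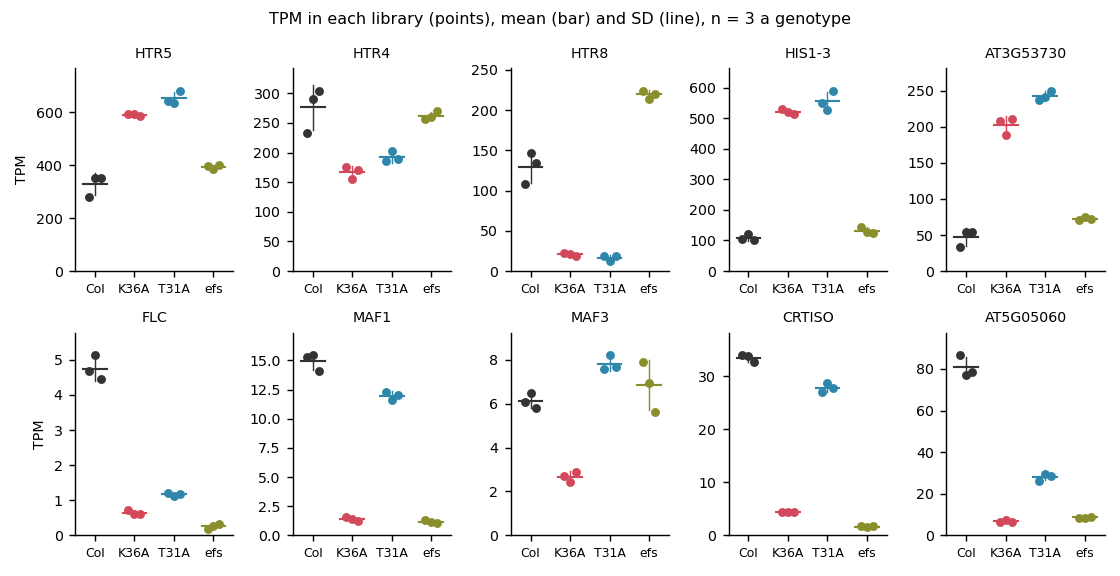
TPM per library of histone, floral repressor and other strongly changed genes in Col, K36A, T31A and efs seedlings. Points are libraries, bars are means and lines are SD (n = 3). HTR5, HIS1-3 and AT3G53730 are high in both H3.3 substitution genotypes, while MAF1, MAF3 and CRTISO are lower in K36A than in T31A.

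Over all tested genes, limma on log2(TPM + 1) with Benjamini-Hochberg adjustment called 6241 of 19599 genes (31.8%) at an adjusted p under 0.05, of which 4470 (22.8%) were higher in K36A and 1771 (9.04%) lower. The split depended on the scaling: 71.6% of calls were higher with TPM as deposited, 46% after median-of-ratios scaling and 47.3% after quantile normalization. The median log2 difference of all genes was 0.093 as deposited and -0.005 after median-of-ratios scaling. With a call in the same direction asked of both scalings, 4432 genes (22.6%) changed: 2661 rose (13.6%) and 1771 fell (9.04%). At 2-fold or more, 269 rose (1.37%) and 128 fell (0.653%). All log2 differences come from log2(TPM + 1), a scale that shrinks changes at low values, and the p given is that of TPM as deposited. TPM here is per gene span, introns included. At the edge of the filter, 200 genes entered through the K36A libraries alone and 48 through the Col libraries alone, and such genes had to differ. Of those named, FLC, MAF5, AGL24 and AT1G62085 entered through Col alone, and KIN1, SESA3, CRC, PORA, PBS3, AT1G13605 and AT1G13607 through K36A alone, so their values are given as a description with no test. The counts below also hold WRKY46, MYB122 and JAZ7, which entered through K36A alone, and GA2OX8 and HSFA2, which entered through Col alone. Some genes of groups made by product or position entered through K36A alone: 1 histone, 1 thalianol neighbourhood, 2 defensin-like and 2 ribosomal protein genes. The Col libraries alone let in 1 mTERF gene. Of all members, 360 reached the minimum in exactly 3 libraries, and 279 genes of the table that reached it in exactly 2 were left out.

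The largest rises included seed and dehydration genes. EM1 (AT3G51810), a late embryogenesis abundant protein that accumulates in maturing seeds, stood at 1.25, 0.933 and 2.27 TPM in Col and 16.5, 13.5 and 11.9 TPM in K36A, a log2 difference of 2.61 (SE 0.18, adjusted p = 2.4e-07). AT3G02480, a gene of the same broad protein class, rose from 8.95, 15.4 and 11.4 TPM to 59.9, 51.4 and 56.3 TPM (log2 difference 2.17, SE 0.15, adjusted p = 2.3e-07). In T31A, EM1 stood at 9.66 ± 1.96 TPM and AT3G02480 at 55.6 ± 2.45 TPM. Neither differed from K36A by the test (adjusted p = 0.0577 and 0.982, limma). In efs they stood at 3.16 ± 0.365 TPM and 18.4 ± 3.25 TPM. All genes of this list and of the largest falls were picked among called protein-coding genes that average at least 5 TPM. Groups that do not overlap were also required, so that separation is part of the choice. AT5G62210, annotated as an embryo-specific protein of the ATS3 kind, rose from 2.68, 2.44 and 2.26 TPM to 12, 15 and 11.3 TPM, 5.17-fold on the linear scale. PHI-1 and EXO, related genes known for response to phosphate and brassinosteroid, rose from 3.25, 3.24 and 4.3 TPM to 25.1, 24.4 and 21 TPM and from 96.6, 61.8 and 50.1 TPM to 279, 298 and 222 TPM. Both were higher still in the other genotypes: PHI-1 reached 111 ± 4.64 TPM in T31A and 305 ± 11.2 TPM in efs. CER1, an enzyme of wax alkane synthesis, rose from 22.4, 16 and 16.1 TPM to 68, 71.9 and 63.8 TPM, a log2 difference of 1.86 (SE 0.11, adjusted p = 6.4e-08). The other rises among the 15 largest were AT2G05915, AT3G01345, AT4G19430 and AT1G68250, which have no named product, AT2G05510 (glycine-rich), AT3G22961 (paired amphipathic helix), HIS1-3, AT3G53730 and AT4G40042. AT2G05915 overlaps AT2G05914, and its Col libraries ranged from 0.509 to 5.14 TPM.

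The largest falls took in genes of unlike function. AT5G05060, a cystatin and monellin family gene, stood at 86.7, 77.1 and 78.4 TPM in Col and 6.59, 7.32 and 6.54 TPM in K36A, a log2 difference of -3.39 (SE 0.08, adjusted p = 2.8e-12). AT5G05040 matches 50% of its transcript at 95.3% identity, so some reads could be split between them. CRTISO (AT1G06820), the carotenoid isomerase of the chloroplast, fell from 33.9, 33.8 and 32.6 TPM to 4.45, 4.4 and 4.45 TPM, a log2 difference of -2.66 (SE 0.07, adjusted p = 1.7e-11). Among the other falls were AT1G75945, which has no named product and went from 21.6, 29.4 and 26.8 TPM to 1.42, 1.7 and 2.18 TPM, and SR, the serine racemase gene, which went from 10.9, 9.55 and 8.15 TPM to 1.96, 2.41 and 2.25 TPM. SR and CRTISO were also low in efs, at 1.7 ± 0.316 TPM and 1.65 ± 0.0735 TPM, and stood at 6.71 ± 0.24 TPM and 27.8 ± 0.884 TPM in T31A. AT4G01390, a TRAF-like family gene, fell from 48.5, 39.3 and 34 TPM to 7.11, 6.95 and 7.87 TPM, and it overlaps another annotated gene, as do AT5G60030, AT5G13660 and SDR2, also among the 15 largest falls. AT2G15020, with no named product, fell from 63.9, 43.2 and 44.6 TPM to 9.69, 10.1 and 9.18 TPM and stood lower still in T31A (3.49 ± 0.672 TPM) and efs (1.16 ± 0.449 TPM). The list closes with MAF1, HTR8, AT2G24945, AT1G14640, AT1G14642 and AT1G09910. Part of the AT2G24945 transcript matches AT4G36925 and AT3G26800.

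**Figure D2:**
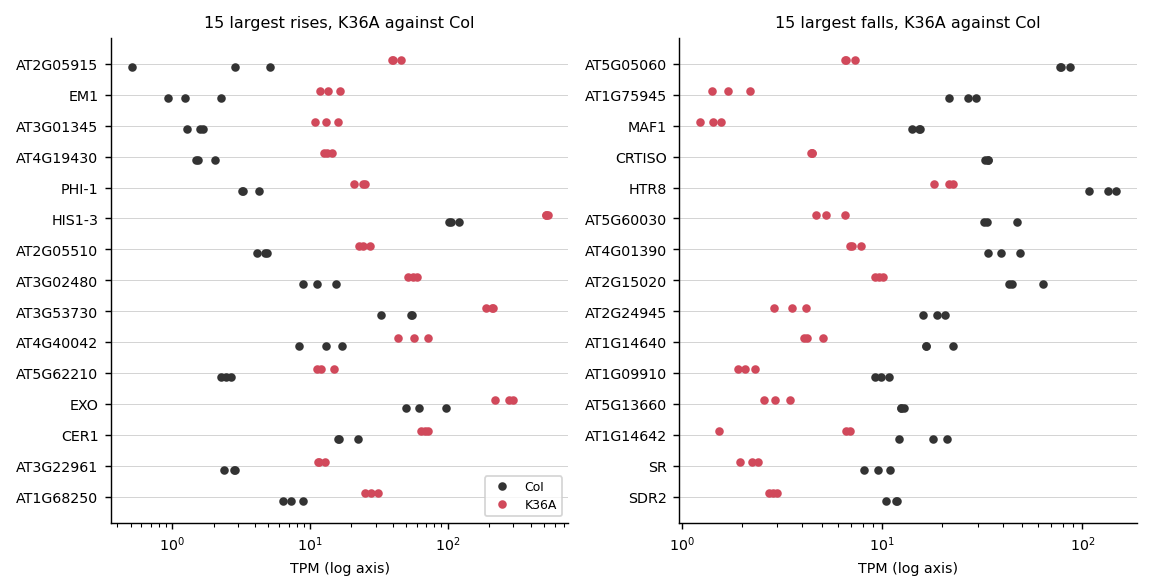
TPM on a log axis for the 15 largest rises and the 15 largest falls among called protein-coding genes that average at least 5 TPM. Each Col and K36A library is a point. Genes were picked among those whose Col and K36A points do not overlap, and they run from EM1 at 0.933 to 2.27 TPM in Col and 11.9 to 16.5 TPM in K36A to AT5G05060 at 77.1 to 86.7 TPM and 6.54 to 7.32 TPM.

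Floral repressors of the FLC clade, MADS-box factors that delay flowering, all fell: 6 of 6 tested members, against 9.04% of all genes. However, FLC and MAF5 entered through the Col libraries alone and had to lie lower in K36A. FLC (AT5G10140) stood at 4.67, 5.13 and 4.45 TPM in Col and 0.724, 0.602 and 0.604 TPM in K36A, and overlaps another annotated gene. MAF1 fell from 15.3, 15.4 and 14.1 TPM to 1.57, 1.44 and 1.23 TPM, a log2 difference of -2.72 (SE 0.09, adjusted p = 2.7e-10). MAF2 fell from 23.8, 24.5 and 20.2 TPM to 11.4, 12.1 and 10.4 TPM, and MAF3 from 6.09, 6.47 and 5.8 TPM to 2.72, 2.42 and 2.88 TPM. Each K36A library lay below each Col library in MAF2 and MAF3. The genotypes differed in which members were low. FLC was low in the other genotypes too, at 1.17 ± 0.031 TPM in T31A and 0.262 ± 0.0726 TPM in efs. MAF1 stood at 12 ± 0.379 TPM in T31A and 1.18 ± 0.109 TPM in efs, and MAF3 at 7.83 ± 0.336 TPM and 6.83 ± 1.14 TPM. K36A was below T31A in MAF1 (log2 difference -2.43, SE 0.09, adjusted p = 1.8e-09), and below efs in MAF3 (log2 difference -1.08, SE 0.11, adjusted p = 2.5e-06).

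Flowering lists are read against 13.6% of all genes that rose and 9.04% that fell. Of 5 flowering promoters tested, SOC1, SPL3 and SPL4 rose and AGL24 fell. SPL3 and SPL4 each overlap another annotated gene. For SPL3 that gene, AT2G33815, matches 98.8% of the transcript at 98.6% identity, so its reads are uncertain. The call of SPL4 was lost under 5 alternatives, among them quantile normalization (adjusted p = 0.107) and voom on recovered reads with median-of-ratios factors (adjusted p = 0.0963), and without Col replicate 3, K36A replicate 2 or K36A replicate 3. AGL24 entered through Col alone and had to be lower, and even so its call was lost with the 6 libraries alone and without Col replicate 2 or K36A replicate 3. SOC1, a MADS-box integrator of flowering signals, went from 16.1, 13.5 and 12.3 TPM to 27.4, 23.3 and 25.3 TPM (log2 difference 0.82, SE 0.09, adjusted p = 2.2e-05), with no overlap between the groups. FT and FUL were under the filter, at means of 0.069 and 0.176 TPM in Col and 0.765 and 0.718 TPM in K36A. Among 6 other repressors, SVP, TOE1 and TOE2 fell and TEM1 rose. SVP, a partner of FLC, went from 86.1, 67.3 and 65.6 TPM to 53, 57.8 and 50 TPM (log2 difference -0.43, SE 0.09, adjusted p = 0.00258). SEP3, a floral organ identity factor and 1 of 2 tested flower markers, rose from 12.3, 10.7 and 12 TPM to 34.5, 30.5 and 37.1 TPM, a log2 difference of 1.46 (SE 0.09, adjusted p = 6.4e-08). The sum of 9 flower markers lay at 13.0 to 14.7 TPM in Col and 33.0 to 39.5 TPM in K36A. SEP3 itself made up most of it in every library, so the sum says little of the other flower markers. The part of flower tissue in the flowering genes was not tested.

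Genes of histone modification and DNA methylation moved little. JMJ30, a histone demethylase, and MRG1, a reader of methylated H3K36, rose, with log2 differences of 0.42 (SE 0.07, adjusted p = 0.00062) and 0.35 (SE 0.07, adjusted p = 0.00139), among 8 tested H3K36 genes. EFS itself stood at 17.5, 13.6 and 15.5 TPM in Col and 18.1, 14.5 and 18.5 TPM in K36A, which did not pass the test (log2 difference 0.12, SE 0.12, adjusted p = 0.479). None of 7 H3 chaperones and none of 14 Polycomb genes was called with both scalings. DML2, a DNA demethylase, and NRPE1, the largest subunit of RNA polymerase V, fell among 20 DNA methylation genes. Their log2 differences were -0.46 (SE 0.11, adjusted p = 0.00585) and -0.53 (SE 0.13, adjusted p = 0.00731). Across all tested genes 13.6% rose and 9.04% fell, so 2 falls among 20 lie near that share.

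Abscisic acid and dehydration genes split. Of 17 tested late embryogenesis and abscisic acid response genes, 5 rose (EM1, KIN1, LEA7, LEA4-5 and COR15B) and 5 fell (RD29A, COR15A, KIN2, ERD10 and RD22), against 13.6% and 9.04% of all genes. ERD10 lost its call with the 6 libraries alone (adjusted p = 0.0745) and without K36A replicate 3. KIN1, which entered through K36A alone, stood at 0.25, 0.389 and 0.31 TPM in Col and 2.41, 2.98 and 2.86 TPM in K36A, while its paralogue KIN2 fell. RD29A, a widely used cold and drought response gene, went from 36.9, 32.4 and 30.7 TPM to 16.8, 17 and 14.6 TPM, 2.07-fold lower (adjusted p = 2.7e-06, limma). The K36A libraries of RD29A all lay below those of Col. Within abscisic acid signalling 5 of 26 genes rose and 2 fell, and the risers included the transcription factor gene ABI5 (log2 difference 0.64, SE 0.09, adjusted p = 0.00012) and the phosphatase genes HAI1 and PP2CA (0.80 and 0.53). Of 10 seed storage genes 4 passed the filter and 3 were called higher, but CRC and SESA3 had entered through K36A alone and had to lie higher there. CRA1, a cruciferin, stood at 1.76, 1.03 and 1.64 TPM in Col and 5.77, 8.37 and 5.81 TPM in K36A, and SESA3, an albumin, was at 0 in every Col library and at 1.62, 1.19 and 1.91 TPM in K36A. The 10 seed markers, of which 4 passed the filter, summed to 13.2 to 13.9 TPM in Col and 21.5 to 26.6 TPM in K36A, with CRB at 0, and their part in the dehydration genes was not tested.

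Carotenoid, chlorophyll and photosystem lists held more genes that fell than rose, against 13.6% of all genes that rose and 9.04% that fell. Of 15 carotenoid genes 6 fell and none rose, with CCD4, a carotenoid cleavage enzyme, going from 273, 247 and 277 TPM to 214, 194 and 204 TPM (log2 difference -0.38, SE 0.07, adjusted p = 0.00088) beside CRTISO. Among 13 chlorophyll synthesis genes 5 fell and 1 rose. HEMA1, the first committed enzyme of the pathway, fell from 236, 232 and 243 TPM to 142, 129 and 152 TPM, a log2 difference of -0.75 (SE 0.07, adjusted p = 5.7e-06). PORA, the protochlorophyllide oxidoreductase typical of seedlings in the dark, entered through K36A alone, at 0.19, 0.265 and 0.235 TPM in Col and 2.49, 2.92 and 2.75 TPM in K36A. For HEMA1 the groups did not overlap. GLK2, a transcription factor that promotes chloroplast development, fell with SIGE and PIF4 among 11 greening genes, going from 158, 143 and 150.0 TPM to 111, 109 and 96.1 TPM. Photosystem genes fell in 13 of 20 cases, for example LHCB2.1 from 2618, 2820.1 and 2864 TPM to 1839, 1842 and 1804 TPM. That count was 7 with the 6 libraries alone and 2 with quantile normalization. Leaving out Col replicate 1 brought it to 16. The green marker sums given earlier moved with these genes, and their part in the result was not tested.

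Sulfur metabolism and aliphatic glucosinolates, sulfur-rich defence compounds of the cabbage family, fell together in these seedlings. Lists here are read against 13.6% of all genes that rose and 9.04% that fell. All 14 tested aliphatic glucosinolate genes fell, from the regulator gene MYB29 to the core enzymes. Against efs 13 of them were higher in K36A with both scalings, and against T31A 1 was higher and 1 lower. MYB29 stood at 46.6, 36.8 and 33.8 TPM in Col and 12.5, 13.4 and 11.8 TPM in K36A, and CYP83A1 at 246, 227 and 231 TPM and 101, 102 and 98.4 TPM (log2 difference -1.22, SE 0.06, adjusted p = 1.2e-08). MYB29 and CYP83A1 values in K36A lay below all Col values and close to T31A (12.4 ± 1.41 TPM and 95.2 ± 2.82 TPM). Of 13 sulfur genes 7 fell and none rose, among them the sulfate reduction enzymes APR1, APR2 and APR3, with log2 differences of -0.57, -0.44 and -0.31. All 3 overlap other annotated genes. Against T31A, 8 of the 13 sulfur genes were higher in K36A and none lower, and against efs 7 were higher and 1 lower. Indolic glucosinolate genes went both ways, with 4 of 12 higher and 2 lower. CYP79B2 and CYP79B3, which make the indolic precursor from tryptophan, rose, with log2 differences of 0.51 (SE 0.08, adjusted p = 0.00026) and of 0.38 (SE 0.06, adjusted p = 0.0003). ESP, the epithiospecifier protein that directs glucosinolate breakdown to nitriles, rose from 5.41, 6.37 and 5.17 TPM to 18.2, 17.8 and 15.1 TPM, a log2 difference of 1.44 (SE 0.10, adjusted p = 2.1e-07).

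Morning genes of the circadian clock fell and some evening genes rose. Both lists are read against 13.6% of all genes that rose and 9.04% that fell. Of 7 morning genes 5 fell, PRR9 from 12.8, 7.88 and 8.37 TPM to 4.78, 4.39 and 6.12 TPM (log2 difference -0.79, SE 0.17, adjusted p = 0.00298). All 7 morning genes were higher in K36A than in T31A with both scalings, and 5 were higher than in efs. Of 9 evening genes ELF4, LUX, TOC1 and BOA rose and PRR3 fell. TOC1 lost its call with the 6 libraries alone (adjusted p = 0.0653), and BOA there (adjusted p = 0.0598), with quantile normalization (adjusted p = 0.0636) and without Col replicate 2 or K36A replicate 2. ELF4, part of the evening complex, went from 132, 169 and 164 TPM to 272, 277 and 312 TPM, a log2 difference of 0.89 (SE 0.09, adjusted p = 6.2e-06). K36A libraries were all above Col for ELF4 and all below for PRR9. The labels give no hour of harvest.

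Hormone lists are read against 13.6% of all genes that rose and 9.04% that fell. In the jasmonate list 8 of 20 fell and 3 rose: AOS, AOC1 and AOC2, which encode enzymes of jasmonate synthesis, went from 236, 233 and 204 TPM to 116, 115 and 116 TPM, from 45.4, 40 and 35.8 TPM to 18, 17.4 and 12.5 TPM and from 420.5, 330.0 and 312 TPM to 171, 184 and 167 TPM. VSP1, a storage protein induced by jasmonate, rose from 14.6, 13.6 and 12.5 TPM to 36.3, 39.9 and 37.7 TPM (log2 difference 1.42, SE 0.08, adjusted p = 3.5e-08). The groups were apart in all 4 genes. Of 16 auxin response genes 6 fell and none rose, led by IAA29 (log2 difference -1.25, SE 0.14, adjusted p = 2e-05) and IAA1 (-0.74, SE 0.08, adjusted p = 1.4e-05), and the count was 3 with the 6 libraries alone. Of 13 brassinosteroid genes 4 fell, including the synthesis genes BR6OX1, with a log2 difference of -0.85 (SE 0.13, adjusted p = 0.00029), and BR6OX2, with -0.50 (SE 0.08, adjusted p = 0.00052). In the ethylene list 4 of 14 genes fell, among them the receptor gene ETR2, and 1 rose, ACS6, with log2 differences of -0.69 (SE 0.11, adjusted p = 0.00027) and 0.93 (SE 0.13, adjusted p = 9.6e-05). Cytokinin-induced type-A response regulators rose in 5 of 7 cases. ARR5 went from 12.6, 11.3 and 8.76 TPM to 23.9, 24.3 and 23.9 TPM, a log2 difference of 1.09 (SE 0.10, adjusted p = 3.2e-06). Among 15 gibberellin genes 2 rose and 2 fell, near the shares of all genes.

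Defence and stress lists, read against the same shares of all genes, differed in direction. Of 16 WRKY transcription factor genes 5 rose and none fell, WRKY70 from 2.71, 2.66 and 3.53 TPM to 9.18, 8.83 and 10 TPM (log2 difference 1.39, SE 0.12, adjusted p = 2.7e-06). With TPM as deposited 9 WRKY genes were called, and 5 without Col replicate 3 or K36A replicate 2. Salicylic acid genes rose in 4 of 11 cases, with PBS3, an enzyme of salicylic acid synthesis that entered through K36A alone, at 0.436, 0.55 and 0.508 TPM in Col and 2.91, 2.56 and 3.48 TPM in K36A. In contrast, 6 of 15 genes for NLR immune receptors fell and only ZAR1 rose, CHS3 going from 25.1, 20.9 and 21.2 TPM to 12.1, 10.1 and 12.5 TPM (log2 difference -0.89, SE 0.09, adjusted p = 8.6e-06). Of 17 heat genes 8 fell and 3 rose, and 4 to 5 fell without Col replicate 1, K36A replicate 1 or K36A replicate 2. HSP70 fell from 112, 93.5 and 102 TPM to 62.7, 66.8 and 59.4 TPM, and HSP18.2, a small heat shock protein gene, rose from 7.66, 7.23 and 7.14 TPM to 19.9, 21 and 18.2 TPM. Touch-induced genes rose in 9 of 16 cases and fell in 2, CBF2 and CBF3. CBF2 lost its call under 9 alternatives, including voom on recovered reads (adjusted p = 0.0725) and leaving out Col replicate 2 (adjusted p = 0.205), Col replicate 3, K36A replicate 1 or K36A replicate 2. TCH4, a cell wall xyloglucan enzyme gene, went from 38.5, 36.4 and 28.6 TPM to 104, 101 and 99 TPM and stood higher still in T31A (239 ± 3.09 TPM) and efs (723 ± 30.7 TPM). Of 16 xyloglucan enzyme and expansin genes 5 rose and 8 fell, and EXPA1, a cell wall loosening protein gene, fell from 343, 294 and 292 TPM to 137, 149.6 and 126 TPM.

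Phosphate and nitrate lists held more genes that rose than fell, as did all genes (13.6% and 9.04%), while the sulfur list given above held none that rose. Of 15 phosphate starvation genes 4 rose, such as the noncoding RNA gene IPS1, from 3.59, 5.57 and 2.32 TPM to 10.2, 10.3 and 10.8 TPM, and the transporter gene PHT1;1 (log2 difference 0.48, SE 0.08, adjusted p = 0.00033). The phosphate count with TPM as deposited was 9, and 5 without Col replicate 3. Nitrate genes rose in 4 of 10 cases and fell in 2. NIA1, nitrate reductase, rose and NIR1, nitrite reductase, fell, with log2 differences of 0.52 (SE 0.07, adjusted p = 8.8e-05) and -0.45 (SE 0.07, adjusted p = 0.00039). Root genes rose in 7 of 17 cases, among them EXPA7, a root hair expansin gene that overlaps another gene, from 10.2, 10.8 and 11.2 TPM to 20.5, 24.3 and 18.7 TPM. With TPM as deposited 11 root genes were called, and 5 to 6 without Col replicate 2, Col replicate 3, K36A replicate 1 or K36A replicate 2. Of 7 genes in the neighbourhood of the thalianol cluster, a root triterpene cluster, 6 rose. The neighbourhood was taken by position, after the values were seen. It includes RABA4C, a RAB GTPase gene that entered through K36A alone and had to lie higher in K36A. AT5G47970, an aldolase-type gene in it, did not pass the test. The synthase gene THAS1 rose from 27.5, 22.5 and 24.4 TPM to 44.1, 38.3 and 41.2 TPM. Root marker sums, given earlier, were slightly higher in K36A, and their part in the nutrient genes was not tested.

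**Figure D3:**
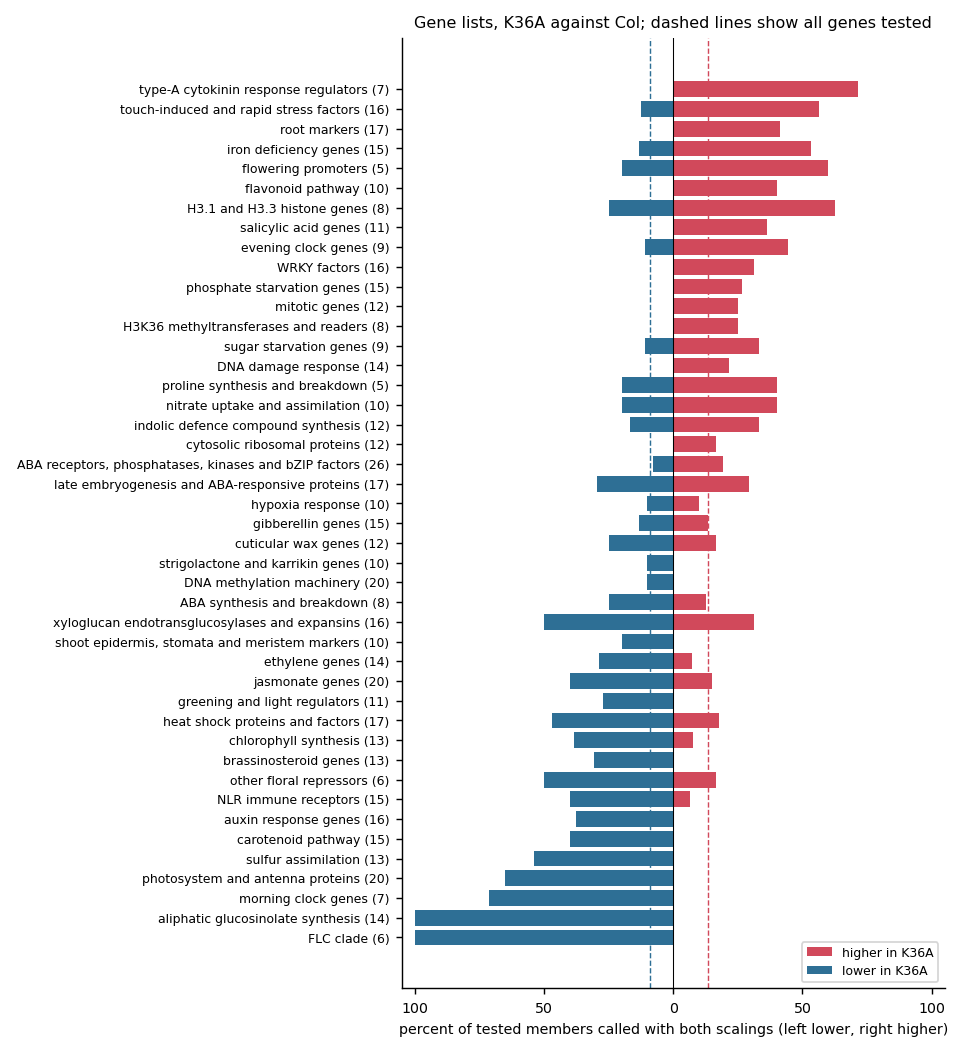
Percent of the tested genes of each list that rose or fell in K36A against Col with both scalings, for lists with at least 5 tested genes and at least 1 call. Dashed lines mark all tested genes, 13.6% higher and 9.04% lower. Aliphatic glucosinolate and FLC clade genes all fell, and the iron deficiency list has 8 of 15 genes higher.

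Counts of ribosomal and nucleolar genes depended on the scaling, and they are read against 13.6% of all genes that rose and 9.04% that fell. Of 12 ribosomal protein genes 2 rose with both scalings and 8 were called higher with TPM as deposited. RPS6A, which encodes a small-subunit ribosomal protein, went from 230.3, 223 and 221 TPM to 308, 339 and 288 TPM (log2 difference 0.47, SE 0.06, adjusted p = 8.3e-05). Of 291 genes whose product names a ribosomal protein and no organelle, picked after the values were seen, 52 rose with both scalings and 131 were called higher with TPM as deposited. The 5 nucleolar genes had 3 calls as deposited and none with both. Among 64 genes of the plastid genome 1 fell and none rose, and among 56 of the mitochondrial genome 7 rose, near the share of all genes, and 1 fell. Nuclear genes for mTERF proteins, which act on organelle transcripts, were grouped after the values were seen, and 8 of 30 fell while 2 rose. Of those that fell, AT1G61970, AT1G61980, AT1G61990, AT1G62085, AT1G62110 and AT1G62120 have close locus numbers on chromosome 1. With the 6 libraries alone AT3G46950 and AT1G62120 lost their calls (adjusted p = 0.0584 and 0.0854, limma), and with quantile normalization AT5G23930, which rose, did (0.0718). AT1G62085, at 4.06, 5.8 and 6.23 TPM in Col and 0.144, 0.0431 and 0.0923 TPM in K36A, entered through Col alone and overlaps another annotated gene, and AT1G62110, its neighbour, fell from 3.92, 5.5 and 5.64 TPM to 0.522, 0.852 and 1.58 TPM. Every K36A library of AT1G62110 lay below every Col library.

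K36A was then compared with the 2 other genotypes directly. Against T31A, 4939 genes (25.2%) were called with both scalings, 2952 (15.1%) higher in K36A and 1987 (10.1%) lower. Against efs, 7210 genes (36.8%) were called, 3917 (20%) higher and 3293 (16.8%) lower. Genes called in the same direction against Col, T31A and efs, with both scalings each time, numbered 906 (4.62%), of which 531 were higher and 375 lower. By at least 2-fold in each, 37 were higher and 8 lower. This rule was set after the values were seen and all 3 comparisons share the K36A libraries, so the counts are a description.

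Iron deficiency genes were among those that differed in K36A from each other genotype. Of 15 tested iron genes 8 rose against Col (13.6% of all genes did) and 2 fell, and all 10 also differed the same way from T31A and efs. The regulator genes bHLH38, bHLH39, bHLH100 and bHLH101, a subgroup induced when iron is short, all rose. bHLH38 (AT3G56970) stood at 9.17, 7.27 and 9.27 TPM in Col and at 30.4, 24.7 and 27.4 TPM in K36A, against 9.56 ± 1.03 TPM in T31A and 5.75 ± 0.855 TPM in efs. Its log2 differences were 1.58 (SE 0.12, adjusted p = 6.2e-07) from Col, 1.43 (SE 0.12, adjusted p = 1.2e-06) from T31A and 2.08 (SE 0.12, adjusted p = 9.2e-09) from efs, and it overlaps another annotated gene. bHLH100 (AT2G41240) went from 21.3, 13.6 and 14 TPM to 49.3, 57.2 and 45.8 TPM, a log2 difference of 1.60 (SE 0.15, adjusted p = 2.9e-06), with 19 ± 0.361 TPM in T31A and 7.2 ± 1.14 TPM in efs. K36A libraries lay above those of every other genotype for both genes. FRO2, the root ferric reductase, and IRT1, the main iron uptake transporter, rose with log2 differences of 0.48 (SE 0.12, adjusted p = 0.00612) and 0.76 (SE 0.11, adjusted p = 0.00023). BTS, which restrains the response, and OPT3, a phloem iron transporter, rose with log2 differences of 0.56 (SE 0.09, adjusted p = 0.00056) and 0.65 (SE 0.07, adjusted p = 8.2e-06). The ferritin genes FER1 and FER4, for iron storage, fell, and FER4 lost its call with the 6 libraries alone (adjusted p = 0.0568) and without K36A replicate 3. FER1 went from 98.4, 98 and 90.1 TPM to 61.6, 63.8 and 55.2 TPM, a log2 difference of -0.66 (SE 0.07, adjusted p = 9.3e-06), and overlaps another annotated gene. Root markers moved with the iron genes: 16 of 17 were higher in K36A than in T31A with both scalings (median log2 difference 0.65), 7 were higher than in Col and 4 than in efs, and their part in the result was not tested.

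Flavonol genes made up another such group. Of 10 tested flavonoid genes TT4, F3H, FLS1 and MYB12 rose, against 13.6% of all genes, and each also exceeded T31A and efs. Of all tested genes, 4.62% were called in the same direction, higher or lower, against Col, T31A and efs. Without Col replicate 1, 7 flavonoid genes were called higher with TPM as deposited, as were 5538 of all 19599 genes. TT4, chalcone synthase, the entry enzyme, stood at 72.8, 48.6 and 51 TPM in Col and 160.3, 185 and 143 TPM in K36A, a log2 difference of 1.50 (SE 0.13, adjusted p = 1.9e-06), with 68.6 ± 6.43 TPM in T31A and 126 ± 4.62 TPM in efs. FLS1, flavonol synthase, went from 8.76, 8.85 and 9.49 TPM to 20, 22.8 and 19.6 TPM, a log2 difference of 1.12 (SE 0.09, adjusted p = 7.9e-07). The K36A libraries of both genes were above all Col libraries. TT4 and F3H overlap other annotated genes.

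Single genes with a level of their own in K36A included AT5G62210 and ESP, above, and several on the lower side. AT5G62210 stood at 12.7 ± 1.95 TPM in K36A, at 2.46 ± 0.21 TPM in Col, at 2.97 ± 0.487 TPM in T31A and at 2.57 ± 0.0383 TPM in efs. Its log2 differences were 1.79 (SE 0.12, adjusted p = 1.9e-07) from T31A and 1.93 (SE 0.12, adjusted p = 2e-08) from efs. AT1G14640, which carries a SWAP domain found in splicing proteins, fell from 22.5, 16.5 and 16.6 TPM to 4.22, 5.05 and 4.05 TPM and stood at 14.6 ± 1.88 TPM in T31A and 18.7 ± 1.02 TPM in efs. AT1G14642, beside it, fell from 12.1, 17.9 and 21.1 TPM to 6.88, 1.54 and 6.6 TPM. AT1G09910, a rhamnogalacturonate lyase family gene, fell from 10.8, 9.86 and 9.17 TPM to 2.07, 1.9 and 2.33 TPM, against 6.59 ± 0.343 TPM in T31A and 8.3 ± 0.503 TPM in efs. MAPKKK6, a kinase gene, fell from 6.02, 5.86 and 5.71 TPM to 1.72, 1.49 and 2.16 TPM and overlaps another gene. The K36A libraries of MAPKKK6 all lay below those of Col.

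**Figure D4:**
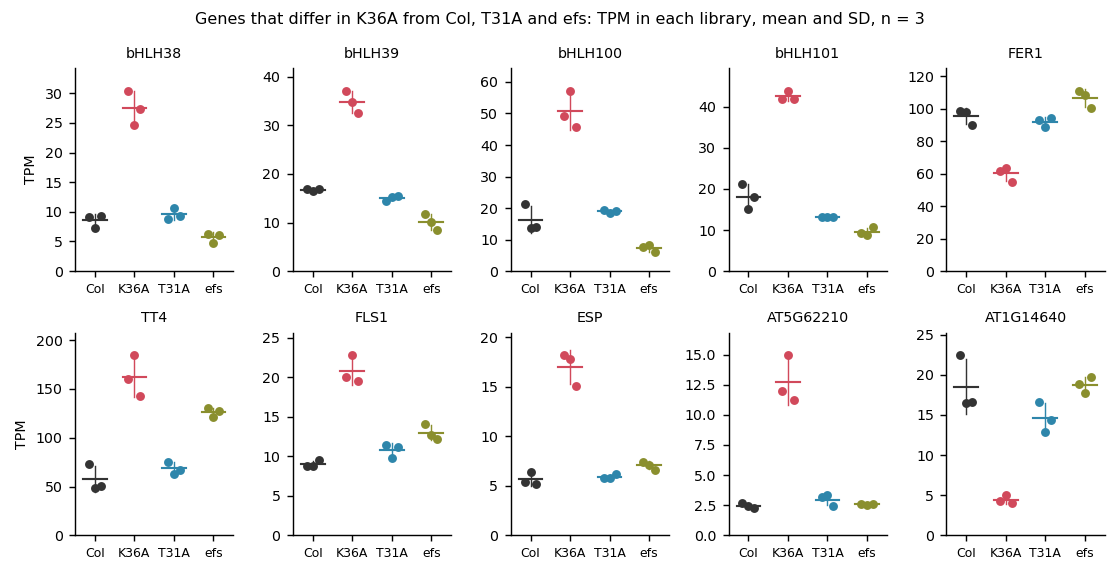
TPM per library of iron, flavonol and single genes in Col, K36A, T31A and efs seedlings, with points for libraries, bars for means and lines for SD (n = 3). K36A is the highest genotype for bHLH38, bHLH100, FLS1, ESP and AT5G62210 and the lowest for AT1G14640.

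Upstream sequences are shown for 4 of the genes that rose, 3 of them also above T31A and efs, to place a shared motif of 7 bases. Each is the 200 bases before the annotated gene start, from RefSeq TAIR10.1, on the strand of the gene, with capitals for ACGTGTC, the core of the abscisic acid response element, or its complement GACACGT. The windows are chr5:24987812-24988011 for AT5G62210 (minus strand), chr2:17199455-17199654 for bHLH100 (minus strand), chr3:21085246-21085445 for bHLH38 (minus strand) and chr3:19214522-19214721 for EM1 (plus strand).
AT5G62210: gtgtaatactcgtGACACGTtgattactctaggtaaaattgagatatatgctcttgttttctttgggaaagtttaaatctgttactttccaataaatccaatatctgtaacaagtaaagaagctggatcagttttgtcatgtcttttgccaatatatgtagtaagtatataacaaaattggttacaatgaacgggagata
bHLH100: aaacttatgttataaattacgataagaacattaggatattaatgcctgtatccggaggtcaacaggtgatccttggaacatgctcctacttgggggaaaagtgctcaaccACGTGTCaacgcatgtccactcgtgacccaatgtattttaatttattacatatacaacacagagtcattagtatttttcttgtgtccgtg
bHLH38: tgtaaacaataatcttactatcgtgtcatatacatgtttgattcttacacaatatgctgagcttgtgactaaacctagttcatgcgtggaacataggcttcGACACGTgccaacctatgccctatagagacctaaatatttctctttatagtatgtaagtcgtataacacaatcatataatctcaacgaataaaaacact
EM1: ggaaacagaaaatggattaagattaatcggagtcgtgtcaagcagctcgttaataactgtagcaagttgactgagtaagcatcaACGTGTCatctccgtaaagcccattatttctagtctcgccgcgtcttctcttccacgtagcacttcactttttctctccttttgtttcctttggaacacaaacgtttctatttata
The motif lies 187, 90, 99 and 116 bases before the start, in that order, on the gene's strand in bHLH100 and EM1 and on the other in the remaining genes. These 4 were chosen because they hold it. Searched on both strands from 250 bases before to 50 after the start, ACGTGTC was in 4.79% of all 23744 promoters and in 5.13% of 19478 tested genes. It was in 9.02% (24 of 266) of genes that rose at least 2-fold and in 5.51% (7 of 127) of those that fell as far. Over all changed genes the shares were 5.39% (143 of 2654) of those that rose and 6.11% (108 of 1769) of those that fell, near the share of tested genes. AAACCCT, the telo box, was in 9.28% of tested genes, in 5.64% (15 of 266) and 19 of 127 of the 2-fold rises and falls, and in 9.95% and 6.5% of all rises and falls, the opposite order. AATATCT, known as the evening element, was in 11.7% of tested genes, 16.5% and 12.6% of the 2-fold sets and 11.7% and 13.8% of all rises and falls. ACGTGGC, which shares the letters ACGTG with the first motif, was in 4.89%, 6.77% and 6.3%, and 4.37% and 6.33%. A match describes the letters of a window and shows no binding.

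Short genes rose more often than long genes. From the shortest to the longest of 4 equal bins of gene span (medians 1288, 2038, 2792 and 4246 bases), 21.5%, 15.3%, 11.5% and 6.12% of genes rose. The share that fell was 7.99%, 8.11%, 9.08% and 11.2%. Median log2 differences were 0.204, 0.125, 0.090 and 0.012, and 0.171, 0.137, 0.121 and 0.061 without Col replicate 1, whose values by gene length stood apart. Col replicate 1 moves with the trend, which was also seen without it. K36A replicate 2, low in the longest bin beside the other K36A libraries, moves with the trend too. The bins without K36A replicate 2 were not examined. By number of exons, the share that rose was 20.5%, 17.1%, 11.5% and 5.38% from the fewest to the most.

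**Figure D5:**
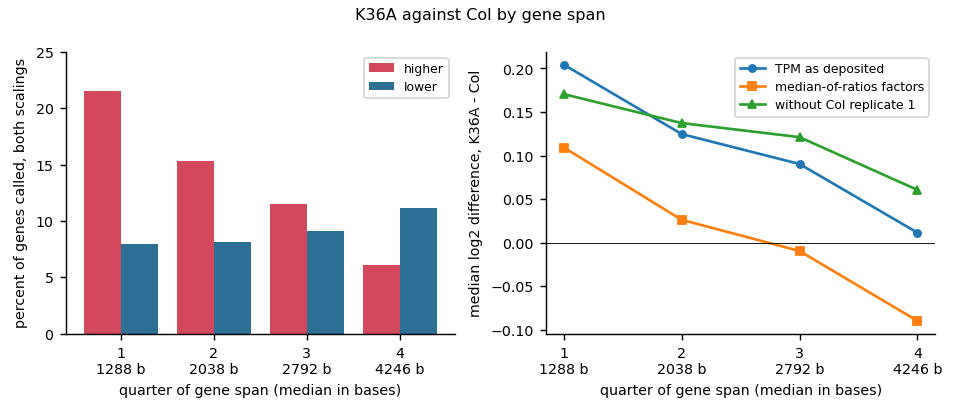
Percent of genes that rose or fell in K36A against Col and the median log2 difference, by bin of gene span, with 4 equal bins. The share that rose declines from 21.5% in the shortest bin to 6.12% in the longest, and the median log2 difference from 0.204 to 0.012.

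More genes were detected in K36A at equal depth. The number of genes expected to have a read at 18589077 reads per library was 21920, 21956 and 21930 in Col and 22493, 22499 and 22529 in K36A. T31A stood at 21956, 22004 and 21970, at or above the highest Col library, and efs replicate 1 at 22336, above every Col and T31A library. The other efs libraries are shallower than this depth. With at least 0.1 TPM as the measure, 21629 to 21675 genes were counted in Col, 22207 to 22252 in K36A, 21630 to 21704 in T31A and 21952 to 22025 in efs, so higher numbers were not limited to K36A. The exact permutation test of K36A against Col gave a two-sided p = 0.1, the smallest that 3 against 3 libraries allow. Among 942 genes without a read in any Col library, 127 had one in each K36A library, while of 471 without a read in K36A, 15 had one in each Col library. AT1G13605, a defensin-like gene, had 13, 13 and 10 reads in the K36A libraries and none in Col. AT4G03450, an ankyrin repeat gene, had 12, 10 and 12 reads against none.

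Some changed genes were neighbours among the tested genes. Of 393 genes changed at least 2-fold with a place in the annotation, 40 formed 19 runs of neighbouring tested genes moving the same way. Genes left out by the filter can lie between them. Of all tested genes, 1.37% rose and 0.653% fell by at least 2-fold. The number of runs that genes placed at random would give was not worked out, so the count is a description. Besides bHLH38 and bHLH39, and AOC1 and AOC2, these held MYB29 and MYB76, both regulators of aliphatic glucosinolates, and PARP3 with AT5G22460. The defensin-like genes AT1G13605, AT1G13607 and AT1G13608 formed a run of 3. AT1G13608 rose from 3.34, 2.89 and 2.15 TPM to 13.4, 11.3 and 10.1 TPM, with 4.7 ± 1.09 TPM in T31A and 2.24 ± 0.56 TPM in efs. Of 12 defensin-like genes, grouped after the values were seen, 7 rose and 1 fell, against 13.6% and 9.04% of all genes. AT1G13605 and AT1G13607 entered through K36A alone, so they had to lie higher in K36A. Paralogues in such runs can share reads.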

How the data were processed

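The deposited table gives TPM per gene for 12 libraries, as made by the authors. The submitters' processing notes name fastp 0.20.1, HISAT2 2.1.10, DESeq2 1.26.0 and the build TAIR10, while the read counter and strand setting are not given in the sources used here. Multiplying deposited TPM by the gene span of TAIR10.1 gave whole reads (within 0.01) for 99.97% to 99.99% of low values per library, so the depth is known and limits the lowest genes. Reads from overlapping genes cannot be separated.

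Genes with at least 1 TPM in 3 of the 6 Col and K36A libraries were tested by limma 3.58.1 (R 4.3.3) on log2(TPM + 1), with a trended prior, over 12 libraries in 4 groups. P-values were adjusted by the Benjamini-Hochberg method over all tested genes, and every test is two-sided. The script was checked on simulated data. The named genes are the H3.3 genes and EFS, the 15 largest changes in each direction among called protein-coding genes whose groups do not overlap and whose TPM averages at least 5, the 5 largest against T31A and efs, and up to 4 members of each gene list. Other named genes were chosen after their values were seen. The members and lists were chosen with earlier results of these data known, and list counts are a description beside the share of all genes.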

Additional observations from a re-analysis of the deposited data

How the results depend on the processing

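For K36A against Col, 4107 genes were called with the 6 libraries alone and 398 when at least a 2-fold change was also asked. Higher genes numbered 2918 with the 6 libraries alone, 2661 with median-of-ratios scaling, 2623 with quantile normalization and 2776 with voom on recovered reads after median-of-ratios scaling. Lower genes numbered 3122, 2927 and 3173 with the last 3 settings. At 2-fold, 454 genes were called against T31A and 813 against efs. Leaving out 1 library at a time gave 4820 to 7271 calls against Col (3382 to 5538 higher, 1431 to 1733 lower), with the highest count without Col replicate 1. It gave 4251 to 4920 calls against T31A (2757 to 3056 higher, 1414 to 1864 lower) and 6082 to 6775 against efs (3272 to 3606 higher, 2735 to 3240 lower). The cause of these moves was not tested, apart from the fewer libraries and the stricter rule themselves. The voom settings were chosen after seeing the data. Without a filter on low values 6562 genes were called, and with a pseudocount of 0.1 the count was 6156.

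Replicate numbers did not pair the libraries: same-numbered deviations correlated at 0.00559, -0.129 and 0.381. With the replicate number as a block 6198 genes were called, 5939 of them shared with the fit without it. Of the 206 genes chosen by rule, 26 lost their call under at least 1 alternative, 2 gained one and 0 changed direction.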
